A study of Homo sapiens with 12 samples.

Results

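The integrated stress response and amino acid supply genes were 39 genes taken from a fixed list of symbols: the transcription factor ATF4 and its partners, the outputs of the stress response, the enzymes that make serine, glycine, proline and asparagine, the carriers that bring amino acids into the cell, and cytosolic tRNA synthetases. The list was chosen with earlier results of these data known. All 39 were found among the 57865 genes to which the deposited transcript values were summed. All 39 also passed the filter on low counts that left 15424 genes for testing. RNA was measured in 12 libraries from 4 established lines of human acute myeloid leukaemia: OCI-AML3 and MV4-11, with MOLM-14 and the immature line KG-1a. Each line was treated for 12 h with DMSO, the solvent control, with 10 µM pioglitazone or with 10 µM darglitazone, and gave 1 library per treatment. Both drugs are thiazolidinediones, a class that activates the nuclear receptor PPARγ, and they differ in the side group carried by the shared thiazolidinedione ring. No culture of a line was repeated under the same treatment, so the line is the replicate and a drug test weighs the mean response against its spread between lines.

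In the integrated stress response, kinases that sense unfolded protein, missing amino acids, haem shortage or double-stranded RNA phosphorylate the translation factor eIF2. Most protein synthesis then slows, while the message of ATF4 is translated better. ATF4 binds DNA as a dimer with C/EBP family proteins and switches on genes that restore amino acids, charge tRNAs and, when stress persists, favour cell death. Leukaemia cells depend on outside supplies of several amino acids, and asparagine depletion by asparaginase is an established treatment of acute lymphoblastic leukaemia.

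Total estimated counts ran from 1.1 M in the OCI-AML3 pioglitazone library to 64.24 M in the OCI-AML3 DMSO library. In that shallowest library 3 counts, taken as the lowest level told apart from 0, corresponded to 2.74 CPM, and in the other 11 libraries to at most 0.629 CPM. CPM is a gene's share of its library's counts. These floors use the plain library total, while the gene levels below are scaled between libraries by TMM. Protein-coding genes held 74.1% to 85.1% of the counts in 11 libraries and 55.6% in KG-1a with pioglitazone, where a single annotated entry, FP671120.3, took 23.5%. The same entry took 6.17% in OCI-AML3 with pioglitazone and at most 0.542% in the other 10. Genes expressed mainly in a single line were also counted at low levels in other lines. In KG-1a with darglitazone, 7 genes specific to MV4-11 stood at a median of 4.24% of their MV4-11 level. In OCI-AML3 with pioglitazone, 84 genes specific to KG-1a stood at 1.97% of their KG-1a level. In MV4-11 with DMSO, to which the other MV4-11 libraries are compared, 5 genes specific to MOLM-14 stood at 2.02% and 12 specific to OCI-AML3 at 1.46%, and in MV4-11 with darglitazone the MOLM-14 genes stood at 1.38%. The other medians were at most 0.947%. Whether these values came from reads of the other lines or from low expression of the genes was not tested. The 10 myeloid and leukaemia markers summed to 2049 to 3696 CPM in every library. NPM1 alone was at 670 to 1951 CPM, while CD34, FLT3 and MPO were as low as 0.0747, 0.604 and 1.41 CPM. In KG-1a, MPO and FLT3 had means of 2.34 and 7.14 CPM, under the T cell marker CD3E at 13.5 and the B cell marker CD79A at 13.8. The rest of the 10 were above both there. All 3 T cell markers together summed to 0 to 33.3 CPM and all 3 B cell markers to 0 to 18.8 CPM, highest in KG-1a in both cases, and the 3 epithelial and 3 fibroblast markers summed to at most 1.7 and 1.14 CPM, with MS4A1 and KRT19 at 0 in all 12 libraries.

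Many genes of this response carry a composite site for ATF4 and C/EBP proteins, the C/EBP-ATF response element, whose core reads TGATGNAA. RefSeq promoter windows on GRCh38.p14 (250 bases before to 50 after a transcription start) were matched by symbol for 32 of the 39 genes. ALDH1L2, LARS1, NUPR1, PSPH, PYCR1, SHMT2 and YARS1 were not matched. The core was found on either strand in 13 of the 32 genes (40.6%), against 4.46% of all 27305 genes with such a window and 2.87% of the 10959 of them tested here. It lay in 6 of 9 tRNA synthetases, 3 of 5 carriers, 2 of 5 regulators, 1 of 5 stress outputs and ASNS, and in none of the 3 serine pathway and 3 secreted or surface protein genes with a window. A match describes the letters of these windows only. Below, 9 of the 13 stretches show 1 or more genes of each role with a match and all 4 variants of the core. Each is written 5′ to 3′ on the strand that reads TGATGNAA, with the core in capitals.
ATF3 (chr1:212565205-212565234, + strand): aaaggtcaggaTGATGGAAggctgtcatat
CEBPG (chr19:33374060-33374089, + strand): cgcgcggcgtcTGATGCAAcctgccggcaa
CHAC1 (chr15:40953251-40953280, - strand): cctggcaggagTGATGCAAcggcaggggag
ASNS (chr7:97872458-97872487, - strand): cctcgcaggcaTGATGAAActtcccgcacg
SLC3A2 (chr11:62881725-62881748, - strand): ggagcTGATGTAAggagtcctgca
SLC7A1 (chr13:29595663-29595692, - strand): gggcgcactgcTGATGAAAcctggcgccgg
AARS1 (chr16:70289675-70289704, + strand): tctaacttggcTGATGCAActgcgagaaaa
GARS1 (chr7:30594834-30594863, - strand): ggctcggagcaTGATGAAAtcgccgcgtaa
IARS1 (chr9:92293692-92293721, + strand): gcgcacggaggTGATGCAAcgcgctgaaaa
Of the 13 cores, 8 read TGATGCAA, 3 TGATGAAA, 1 TGATGGAA and 1 TGATGTAA. In ASNS, the enzyme that makes asparagine, the core began 68 bases before the start, and in GARS1, the glycyl-tRNA synthetase, 33 bases before it. In SLC3A2 and SLC7A1 it lay 38 and 8 bases after the start. The remaining matches were in SLC1A5, MARS1, NARS1 and CARS1.

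With pioglitazone most of the 39 genes stood above DMSO, but none passed the test. The genes were chosen with earlier results of these data known. Their shares beside those of all genes, here and below, are therefore description only. The fitted log2 fold change over the 4 lines was above 0 for 36 of 39 genes (92.3%), against 46.5% of all genes tested, with a median of 0.30 against -0.02. The 3 below 0 were NUPR1, ALDH18A1 and SLC1A5, at -0.02, -0.12 and -0.03. With darglitazone 31 of 39 (79.5%, against 51% of all genes) were above 0, with a median of 0.17 against 0.01. In edgeR's quasi-likelihood test with Benjamini-Hochberg adjustment, 0 of 39 genes passed an adjusted p of 0.05 with either drug, as did 0% of all genes tested. At an unadjusted p under 0.05, 8 members were higher with pioglitazone (20.5%, against 2.09% of all genes) and 0 were lower (3.87% of all genes): CHAC1, PSAT1, ALDH1L2, ASNS, AARS1, GARS1, IARS1 and LARS1. With darglitazone 2 were higher (5.13%, against 1.76%), DDIT3 and SARS1, and 0 lower (1.65%). Both were lost without the OCI-AML3 DMSO or the OCI-AML3 darglitazone library, where the count was 0; it was 1 without the MV4-11 DMSO library and 4 without the MOLM-14 DMSO or the MV4-11 darglitazone library. DESeq2 and limma-voom called 0 members with either drug, with 12 and 9 at an unadjusted p under 0.05 with pioglitazone and 2 and 7 with darglitazone. Leaving out the pioglitazone libraries of KG-1a and OCI-AML3, the pioglitazone median was 0.33, with 37 of 39 genes above 0, and 4 genes stood at an unadjusted p under 0.05. The median was 0.16 (32 of 39 above 0) without the OCI-AML3 DMSO library, 0.17 (31 of 39) without the MV4-11 pioglitazone library and 0.25 (36 of 39) without the MV4-11 DMSO library. The count of 8 at an unadjusted p under 0.05 was 2 without the OCI-AML3 DMSO, the MV4-11 DMSO or the MV4-11 pioglitazone library, 4 without the KG-1a DMSO library, 5 without the MOLM-14 darglitazone or the KG-1a pioglitazone library, and 17 without the OCI-AML3 darglitazone library. In the single-line ratios, 7 genes were above DMSO with pioglitazone in each of the 4 lines (17.9%, against 5.98% of all genes): TRIB3, SESN2, ASNS, SLC38A2, NARS1, IARS1 and LARS1. With darglitazone 3 were above DMSO in each line, DDIT3, VLDLR and SARS1 (7.69%, against 7.09% of all genes, close to the background). PYCR1 and SLC38A2 were below DMSO in each line with darglitazone (5.13%, against 7.12%). The darglitazone median rested on OCI-AML3: it was -0.05 without its darglitazone library, with 16 of 39 genes above 0, and 0.00 without its DMSO library. It was 0.29 without the MOLM-14 DMSO library and 0.26 without the MV4-11 darglitazone library. Leaving out 1 library moved the fitted change by over 1.5 times in 15 of the 20 genes described library by library with pioglitazone, all but PSAT1, ASNS, SLC38A2, GARS1 and LARS1, and in 18 of 20 with darglitazone, all but SLC38A2 and SARS1.

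**Figure D1:**
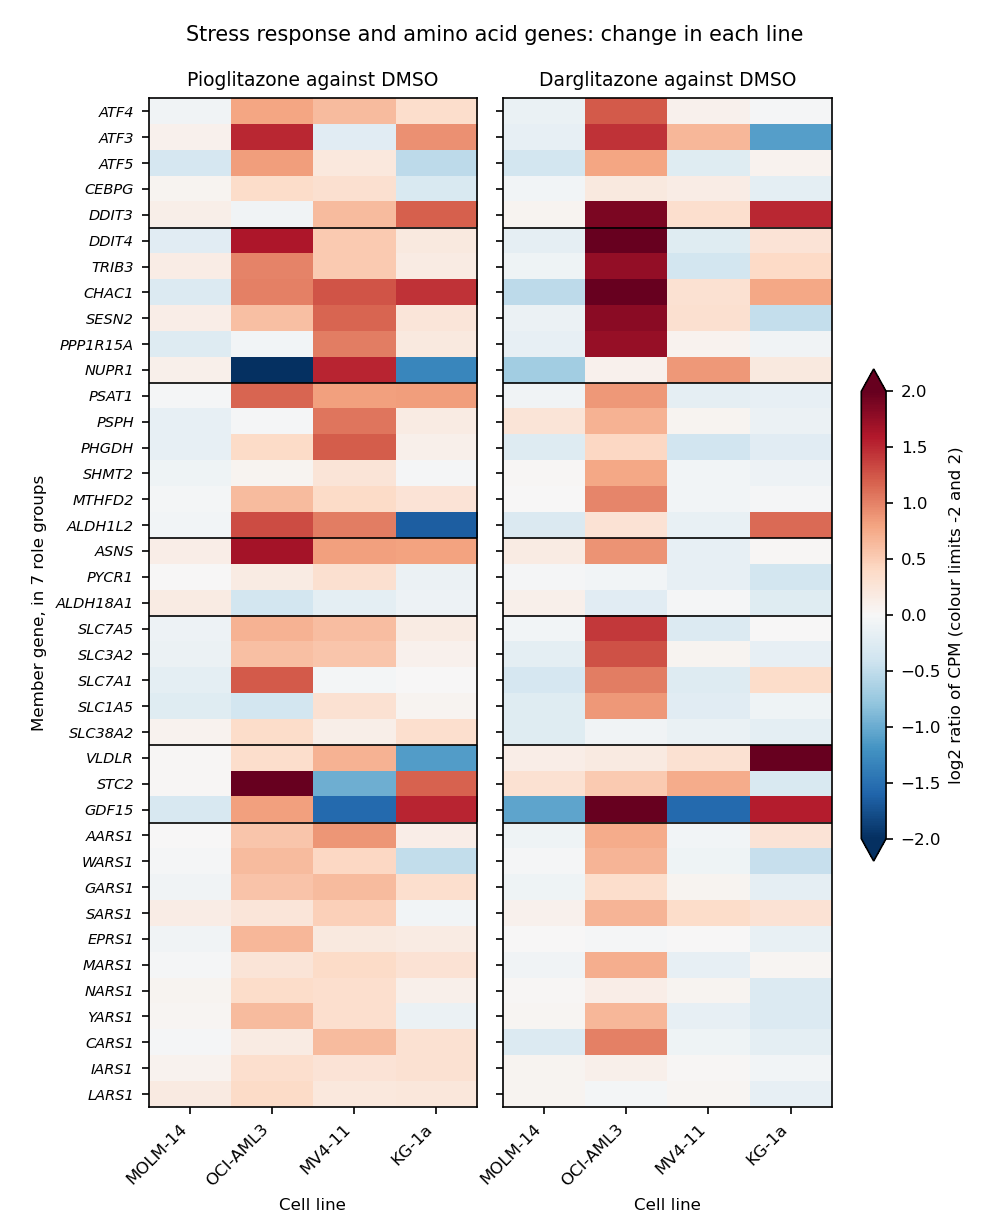
Log2 ratio of CPM against DMSO (colour, limits -2 and 2) of the 39 genes (rows, grouped by role) in each of the 4 lines (columns), with pioglitazone on the left and darglitazone on the right. MOLM-14 is near white in both panels, with medians of -0.03 and -0.07, while OCI-AML3 is mostly red in both, with medians of 0.57 and 0.74.

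The single-line ratios were uneven between lines. In MOLM-14 the median log2 ratio to DMSO was -0.03 with pioglitazone and -0.07 with darglitazone, and 0 of 39 genes were 1.5-fold or more higher with either drug (6.84% and 7.18% of all genes). In OCI-AML3 the medians were 0.57 and 0.74, and 19 genes (48.7%, against 17% of all genes) were at least 1.5-fold higher with pioglitazone and 25 (64.1%, against 15.2%) with darglitazone. In MV4-11 the median was 0.48 with pioglitazone, where 16 genes (41%, against 12.8%) passed 1.5-fold, and -0.05 with darglitazone, where 3 did (7.69%, against 11.3%). In KG-1a the medians were 0.17 and -0.08, and 7 genes (17.9%, against 16.2%) and 5 genes (12.8%, against 16.5%) were 1.5-fold higher, close to the background. The median of all genes in these ratios lay between -0.20, for pioglitazone in OCI-AML3, and 0.02. These ratios compare 1 library with 1 library and carry no test. They include genes with 3 counts or fewer in both libraries, such as STC2 in OCI-AML3, GDF15 in MV4-11 and ALDH1L2 in KG-1a. In bulk RNA, a response of few cells and a weaker response of all cells cannot be told apart.

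ATF4 (ENSG00000128272, chr22:39519695-39522685), the central transcription factor of the response, is controlled mainly through translation, so its RNA is only part of its regulation. In every set of values below, the order is DMSO, pioglitazone, darglitazone. ATF4 stood at 489, 847 and 1149 CPM in OCI-AML3, 474, 738 and 502 in MV4-11, 348, 443 and 344 in KG-1a and 589, 562 and 538 in MOLM-14. The pioglitazone library was the highest in MV4-11 and KG-1a and the darglitazone library in OCI-AML3, while MOLM-14 differed little, and the treatment groups overlapped. Mean ATF4 was 475 ± 98.8 CPM with DMSO, 648 ± 180 with pioglitazone and 633 ± 354 with darglitazone (SD, n = 4). The fitted log2 fold changes were 0.41 (SE 0.20, edgeR adjusted p = 0.872) and 0.29 (SE 0.21, adjusted p = 1).

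DDIT3 (ENSG00000175197, chr12:57516588-57521737) encodes CHOP, a C/EBP family factor tied to cell death under lasting stress. It stood at 12.9, 12.3 and 47.9 CPM in OCI-AML3, 9.85, 15.3 and 12.5 in MV4-11, 2.38, 5.54 and 6.91 in KG-1a and 18.9, 20.5 and 19.6 in MOLM-14. With darglitazone it was above DMSO in all 4 lines, as 7.09% of all genes were. The log2 ratio was 0.05 in MOLM-14 and 1.89 in OCI-AML3, and the treatment groups overlapped. The fitted log2 fold change was 0.94 with darglitazone (SE 0.33, 95% interval 0.23 to 1.66, edgeR unadjusted p = 0.0134, adjusted p = 1) and 0.52 with pioglitazone (SE 0.33, adjusted p = 0.909). DDIT3 overlaps MARS1 on the opposite strand. Strand use in the counting was not given in the sources used here, so reads of the pair may not be told apart.

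ATF5 (ENSG00000169136, chr19:49928702-49933935) encodes a related factor under the same translational control and differed more between lines than between treatments. It stood at 102, 182 and 175 CPM in OCI-AML3, 29.5, 34.3 and 25 in MV4-11, 10.2, 7.05 and 10.7 in KG-1a and 25, 19.7 and 19.5 in MOLM-14. All 3 OCI-AML3 libraries were above the other 9 and all 3 KG-1a libraries below them. Of the remaining regulators, ATF3, a stress-induced repressor, was highest at 23.7 and 22.7 CPM in the OCI-AML3 pioglitazone and darglitazone libraries against 8.25 with DMSO. CEBPG, the usual dimer partner of ATF4, kept within 35.5 to 81 CPM in all 12 libraries, with fitted log2 fold changes of 0.10 and 0.02.

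**Figure D2:**
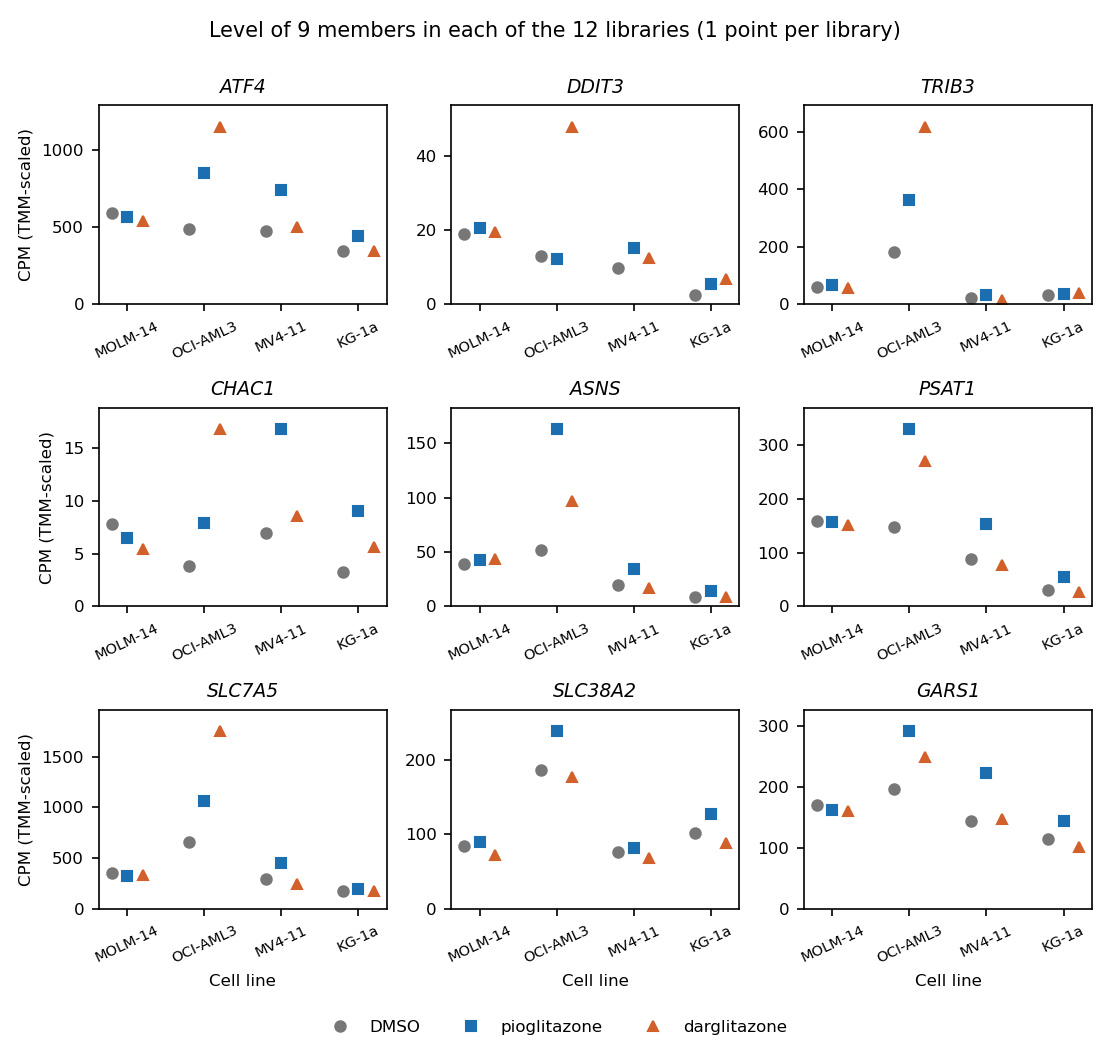
Level of 9 genes in TMM-scaled CPM (vertical axes from 0) in each line (horizontal axes), 1 point per library, with grey circles for DMSO, blue squares for pioglitazone and orange triangles for darglitazone. For ATF4, DDIT3, TRIB3 and SLC7A5 the OCI-AML3 darglitazone library is the highest of the 12, and for ASNS and PSAT1 the OCI-AML3 pioglitazone library is.

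The stress outputs stood farthest above DMSO, by their median, in OCI-AML3 with darglitazone and in MV4-11 with pioglitazone. Their median log2 ratio to DMSO was 1.78 in OCI-AML3 with darglitazone and 1.09 in MV4-11 with pioglitazone, against -0.17 and -0.06 in MOLM-14 with darglitazone and pioglitazone. None of the 6 passed the test with either drug. TRIB3 (ENSG00000101255, chr20:362835-397559), a pseudokinase that restrains ATF4 and AKT signalling, stood at 183, 363 and 618 CPM in OCI-AML3, 21.1, 30.7 and 16.3 in MV4-11, 30.9, 34.8 and 40.8 in KG-1a and 60.2, 67 and 57.1 in MOLM-14. With pioglitazone it was above DMSO in each line, by 0.15 to 0.99 on the log2 scale, and the OCI-AML3 libraries lay above all others. The fit gave 0.43 with pioglitazone (SE 0.32) and 0.47 with darglitazone (SE 0.33), with edgeR adjusted p = 0.93 and 1. Without the OCI-AML3 DMSO library these were 0.15 and 0.13, and without the OCI-AML3 darglitazone library the second was 0.07.

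CHAC1 (ENSG00000128965, chr15:40952962-40956519) encodes an enzyme that breaks down glutathione and is a sensitive readout of ATF4 activity. It stood at 3.87, 7.9 and 16.8 CPM in OCI-AML3, 6.94, 16.8 and 8.6 in MV4-11, 3.28, 9.07 and 5.65 in KG-1a and 7.85, 6.51 and 5.45 in MOLM-14. Both drugs were above DMSO in the other 3 lines and below it in MOLM-14. The value of 7.9 CPM rests on 9 counts, with an exact Poisson 95% interval of 3.61 to 15 CPM that covers counting error only. The fitted log2 fold change with pioglitazone, 0.89 (SE 0.40, 95% interval 0.02 to 1.76), was the largest of the 39 genes in this fit, with an edgeR unadjusted p = 0.0465 and an adjusted p = 0.83. It was 0.34 (edgeR unadjusted p = 0.502) after all libraries were thinned to the depth of the shallowest, where ASNS stood at 1.19, and 0.60 without the OCI-AML3 DMSO and 1.39 without the MOLM-14 DMSO library.

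DDIT4 (ENSG00000168209, chr10:72273920-72276036) encodes an inhibitor of the growth kinase mTORC1. It stood at 17.4, 53.5 and 93.2 CPM in OCI-AML3, 10.8, 15.5 and 9.06 in MV4-11, 26.7, 30.6 and 32.2 in KG-1a and 345, 294 and 304 in MOLM-14. Its level in MOLM-14 was far above all other libraries whatever the treatment, while the largest ratios to DMSO were in OCI-AML3, 1.62 and 2.42 on the log2 scale. The fitted changes were 0.42 (SE 0.46) with pioglitazone and 0.56 (SE 0.46) with darglitazone, with edgeR adjusted p = 0.949 and 1. Without the OCI-AML3 DMSO library they were 0.01 and 0.04, and without the MOLM-14 DMSO library 0.75 and 0.86. SESN2, an amino acid sensor, stood at 39.4, 59.7 and 138 CPM in OCI-AML3, and PPP1R15A, which directs the removal of phosphate from eIF2, at 32.6, 31.6 and 109. In MV4-11 the higher library for both was pioglitazone, at 23.9 CPM against 10.7 with DMSO for SESN2 and 115 against 56.7 for PPP1R15A. NUPR1, a small stress-induced chromatin protein, was at 0 to 1.93 CPM throughout, with 0 counts in the shallowest library. There the floor of 3 counts is 2.74 CPM and the exact Poisson 95% upper limit 3.37 CPM, both without TMM scaling.

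Among the enzymes of serine, glycine and folate metabolism, PSAT1 (ENSG00000135069, chr9:78297143-78330093), the transaminase of serine synthesis, stood out with pioglitazone. It was at 147, 329 and 269 CPM in OCI-AML3, 87.1, 153 and 76.8 in MV4-11, 31, 55.3 and 27.6 in KG-1a and 159, 156 and 151 in MOLM-14. In 3 lines pioglitazone was above DMSO by 0.82 to 1.16 on the log2 scale, in MOLM-14 it was not, and darglitazone was above DMSO in OCI-AML3 alone. The fit gave 0.69 with pioglitazone (SE 0.20, 95% interval 0.26 to 1.13, edgeR unadjusted p = 0.00472, adjusted p = 0.642) and 0.12 with darglitazone (SE 0.20, adjusted p = 1). With no filter on low counts PSAT1 passed the pioglitazone test, at a log2 fold change of 0.63 and an edgeR adjusted p = 0.0184. The adjusted p of PSAT1 was 0.105 to 1 in the other alternative fits.

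MTHFD2 (ENSG00000065911, chr2:74198562-74217565), the mitochondrial folate enzyme, was at 308, 479 and 608 CPM in OCI-AML3, 170, 222 and 164 in MV4-11, 264, 320 and 260 in KG-1a and 228, 221 and 228 in MOLM-14. Its pattern resembled that of ATF4, with the OCI-AML3 darglitazone library highest and pioglitazone above DMSO in 3 lines. Coding transcripts carried 29.3% to 40.1% of its counts, the rest falling on other transcripts of the gene. ALDH1L2 (ENSG00000136010, chr12:105019784-105084577), another mitochondrial folate enzyme, was at 32.1, 79 and 39.1 CPM in OCI-AML3, 19, 38.9 and 17 in MV4-11, 0.226, 0 and 0.628 in KG-1a and 66.7, 64.4 and 54.6 in MOLM-14. The KG-1a libraries held 2, 0 and 3 counts of it. KG-1a thus lay at or under the lowest level told apart from 0, and the fitted 0.69 with pioglitazone (SE 0.29, edgeR adjusted p = 0.822) had its higher values in OCI-AML3 and MV4-11. PHGDH, which commits carbon to serine synthesis, was at 48.6, 113 and 37.1 CPM in MV4-11, and PSPH, which completes it, at 10.3, 21.6 and 10.6. That line gave the largest log2 ratio of pioglitazone to DMSO for both, 1.21 and 1.07. The ratio of PHGDH was 0.10 in KG-1a, 0.38 in OCI-AML3 and -0.16 in MOLM-14. That of PSPH was 0.16 in KG-1a, -0.02 in OCI-AML3 and -0.17 in MOLM-14. Their fitted pioglitazone values were 0.41 (SE 0.25) and 0.35 (SE 0.24), with edgeR adjusted p = 0.909 and 0.929. PSPH has near-identical gene copies, so its counts are uncertain. SHMT2, which converts serine to glycine, had the lowest value of these enzymes with pioglitazone, a fitted log2 fold change of 0.06 (SE 0.15).

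ASNS (ENSG00000070669, chr7:97852118-97872542), asparagine synthetase, had the smallest p of the 39 genes in the comparison of pioglitazone with DMSO. It was at 51.7, 163 and 96.7 CPM in OCI-AML3, 19.3, 34 and 17.3 in MV4-11, 8.26, 14.6 and 8.38 in KG-1a and 39.1, 42.8 and 43.7 in MOLM-14. Pioglitazone was above DMSO in each of the 4 lines, by 1.66 in OCI-AML3, 0.82 in MV4-11, 0.81 in KG-1a and 0.13 in MOLM-14 on the log2 scale. Because lines differ in their level, the treatment groups overlapped, with 29.6 ± 19.5 CPM for DMSO and 63.6 ± 67.4 for pioglitazone (SD, n = 4). The fitted log2 fold change was 0.85 (SE 0.21, 95% interval 0.39 to 1.31, edgeR unadjusted p = 0.00146, adjusted p = 0.559), and it ran from 0.60 to 1.19 over 21 alternative fits. With no filter on low counts it was 0.78 and passed, with an edgeR adjusted p = 0.00397, while the adjusted p of ASNS was 0.0652 to 1 in the other alternative fits. The fit for darglitazone gave 0.25 (SE 0.21, adjusted p = 1).

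PYCR1 (ENSG00000183010, chr17:81932384-81942412), which completes proline synthesis, set OCI-AML3 apart in the opposite direction. It was at 6.23, 7.02 and 5.99 CPM in OCI-AML3, 92.4, 116 and 82.6 in MV4-11, 114, 105 and 88.6 in KG-1a and 118, 118 and 115 in MOLM-14. All 3 OCI-AML3 libraries lay below the other 9, and the fitted log2 changes against DMSO were 0.09 with pioglitazone and -0.16 with darglitazone. ALDH18A1, which starts proline synthesis, kept within 115 to 242 CPM and had the lowest fitted value of the 39 with pioglitazone, -0.12 (SE 0.11).

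Among the carriers, SLC7A5 (ENSG00000103257, chr16:87830023-87869488) and SLC3A2 form the exchanger LAT1-4F2hc, which imports leucine and other large neutral amino acids. SLC7A5 was at 658, 1066 and 1749 CPM in OCI-AML3, 292, 449 and 242 in MV4-11, 170, 192 and 171 in KG-1a and 351, 326 and 336 in MOLM-14. SLC3A2 followed the same order in OCI-AML3, at 303, 459 and 738 CPM, and in MV4-11, at 160, 235 and 165 CPM, its pioglitazone library was likewise the highest. The fitted changes of SLC7A5 were 0.33 (SE 0.28) with pioglitazone and 0.29 (SE 0.28) with darglitazone, with edgeR adjusted p = 0.935 and 1. SLC7A5 has near-identical gene copies and its counts are uncertain. SLC38A2 (ENSG00000134294, chr12:46358189-46372867), a sodium-coupled carrier of small neutral amino acids, was at 187, 239 and 177 CPM in OCI-AML3, 75.8, 82.1 and 68.8 in MV4-11, 102, 128 and 88.6 in KG-1a and 85.1, 89.3 and 72.2 in MOLM-14. In each line pioglitazone was the highest and darglitazone the lowest of the 3, though differences between lines were larger. The fit gave 0.22 with pioglitazone (SE 0.11, edgeR adjusted p = 0.847) and -0.16 with darglitazone (SE 0.10, adjusted p = 1). On coding transcripts alone the pioglitazone value was -0.04. SLC7A1, which carries arginine and lysine, was at 84, 196 and 171 CPM in OCI-AML3, and SLC1A5, the glutamine carrier, at 284, 220 and 517.

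The secreted and surface proteins of the list were expressed at a clear level in some lines only. GDF15 (ENSG00000130513, chr19:18374731-18389176), a cytokine released by stressed cells, was at 1.94, 3.51 and 27.7 CPM in OCI-AML3, 0.207, 0 and 0 in MV4-11, 0, 0.201 and 0.209 in KG-1a and 0.563, 0.429 and 0.214 in MOLM-14. Only the OCI-AML3 darglitazone library, with 583 counts, was far from the rest; the 9 libraries of other lines held 17 counts or fewer each. The fitted 1.55 with darglitazone (SE 1.15, edgeR adjusted p = 1) became -1.17 without that library. STC2 (ENSG00000113739, chr5:173314713-173329503), a secreted glycoprotein, was at 0, 0.877 and 0.0475 CPM in OCI-AML3, 0.104, 0 and 0.244 in MV4-11, 1.58, 3.73 and 1.26 in KG-1a and 9.84, 10.1 and 12.2 in MOLM-14. All MOLM-14 libraries were above the others, and OCI-AML3 held 0, 1 and 1 counts. VLDLR (ENSG00000147852, chr9:2621834-2660053), a receptor for lipoproteins, was at 52.3, 66.7 and 59.4 CPM in OCI-AML3, 42.7, 69.3 and 53.1 in MV4-11, 0.339, 0.101 and 2.72 in KG-1a and 40.6, 41.4 and 44.5 in MOLM-14. The KG-1a darglitazone value of VLDLR rests on 13 counts, and 4.24% of the mean MV4-11 level would be 2.33 CPM. For ALDH1L2 in that library the same share would be 1.06 CPM, against 0.628 CPM measured on 3 counts. The part of reads from the other line in these values was not tested.

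The 11 cytosolic tRNA synthetases, which load amino acids onto their tRNAs, lay in a narrow range. With pioglitazone all 11 fitted values were above 0 (46.5% of all genes were), from 0.11 to 0.41. In the single-line ratios all 11 were above DMSO in OCI-AML3 (37.5% of all genes) and in MV4-11 (48.8%). In KG-1a 8 were above DMSO (48.7% of all genes) and in MOLM-14 5 were (49.1%). With darglitazone 8 of 11 fitted values were above 0 (51% of all genes), with a median of 0.03. None passed the test. GARS1 (ENSG00000106105, chr7:30594681-30634033) was at 197, 292 and 250 CPM in OCI-AML3, 144, 224 and 148 in MV4-11, 115, 145 and 102 in KG-1a and 170, 162 and 160 in MOLM-14. Pioglitazone was above DMSO in the first 3 of these lines, and the fit gave 0.37 (SE 0.13, 95% interval 0.09 to 0.65, edgeR unadjusted p = 0.014, adjusted p = 0.738).

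LARS1 (ENSG00000133706, chr5:146113038-146182660), the leucyl-tRNA synthetase that also serves as a leucine sensor, was at 261, 341 and 254 CPM in OCI-AML3, 217, 251 and 222 in MV4-11, 111, 129 and 99.2 in KG-1a and 262, 298 and 273 in MOLM-14. Pioglitazone was the highest of the 3 in every line, by 0.18 to 0.38 over DMSO on the log2 scale, and the fit gave 0.25 (SE 0.10, edgeR adjusted p = 0.814). EPRS1 (ENSG00000136628, chr1:219968601-220046658), the glutamyl-prolyl-tRNA synthetase, was at 536, 850 and 528 CPM in OCI-AML3, 185, 211 and 186 in MV4-11, 143, 161 and 129 in KG-1a and 469, 447 and 473 in MOLM-14. Its pioglitazone libraries were the highest in 3 lines, by the most in OCI-AML3.

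SARS1 (ENSG00000031698, chr1:109213918-109238169), the seryl-tRNA synthetase, had the highest fitted value of the synthetases with darglitazone. It was at 99.4, 118 and 159 CPM in OCI-AML3, 97, 136 and 125 in MV4-11, 98.2, 94.5 and 120 in KG-1a and 100, 111 and 106 in MOLM-14. The 4 DMSO libraries lay within 97 to 100 CPM and the 4 darglitazone libraries within 106 to 159, so these groups did not overlap. The fitted log2 fold change was 0.36 (SE 0.13, 95% interval 0.09 to 0.63, edgeR unadjusted p = 0.013, adjusted p = 1). AARS1, CARS1, IARS1, MARS1, NARS1, WARS1 and YARS1 had fitted values of 0.11 to 0.41 with pioglitazone and -0.02 to 0.23 with darglitazone.

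The 2 drugs were compared directly at the same dose and time, as 1 pair of compounds with p-values adjusted over all 15424 genes. Darglitazone was below pioglitazone for 28 of 39 genes (71.8%, against 45% of all genes), with a median log2 difference of -0.10 against 0.03. None of the 39 passed the edgeR test, as did 0% of all genes. At an unadjusted p under 0.05, 9 were lower with darglitazone (23.1%, against 1.41% of all genes) and 0 higher (2.09% of all genes): PSAT1, ALDH1L2, ASNS, SLC38A2 and the synthetases GARS1, EPRS1, NARS1, IARS1 and LARS1. DESeq2 and limma-voom also called 0, with 10 and 5 at an unadjusted p under 0.05. SLC38A2 had the smallest p, with a difference of -0.38 (SE 0.11, 95% interval -0.61 to -0.15, unadjusted p = 0.00282, edgeR adjusted p = 0.98), and was lower with darglitazone in 4 of 4 lines. ASNS differed by -0.61 (95% interval -1.06 to -0.15) and PSAT1 by -0.57 (-1.01 to -0.13). For ATF4 the difference was -0.12 (-0.57 to 0.34), for TRIB3 0.04 (-0.71 to 0.78), for DDIT3 0.42 (-0.31 to 1.16) and for CHAC1 -0.21 (-1.10 to 0.68), intervals that leave room for differences of either sign. In 7 genes darglitazone was below pioglitazone in each of the 4 lines (17.9%, against 4.62% of all genes): PSAT1, PYCR1, SLC38A2, GARS1, NARS1, IARS1 and LARS1. The count of 9 was 3 without the MV4-11 or the KG-1a darglitazone library, 4 without the OCI-AML3 pioglitazone library, 5 without the MV4-11 or the KG-1a pioglitazone library, and 15 without the OCI-AML3 darglitazone library. Leaving out 1 library moved the fitted difference between the drugs by over 1.5 times in 14 of the 20 genes described library by library, all but PSAT1, ALDH1L2, ASNS, SLC38A2, GARS1 and LARS1.

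**Figure D3:**
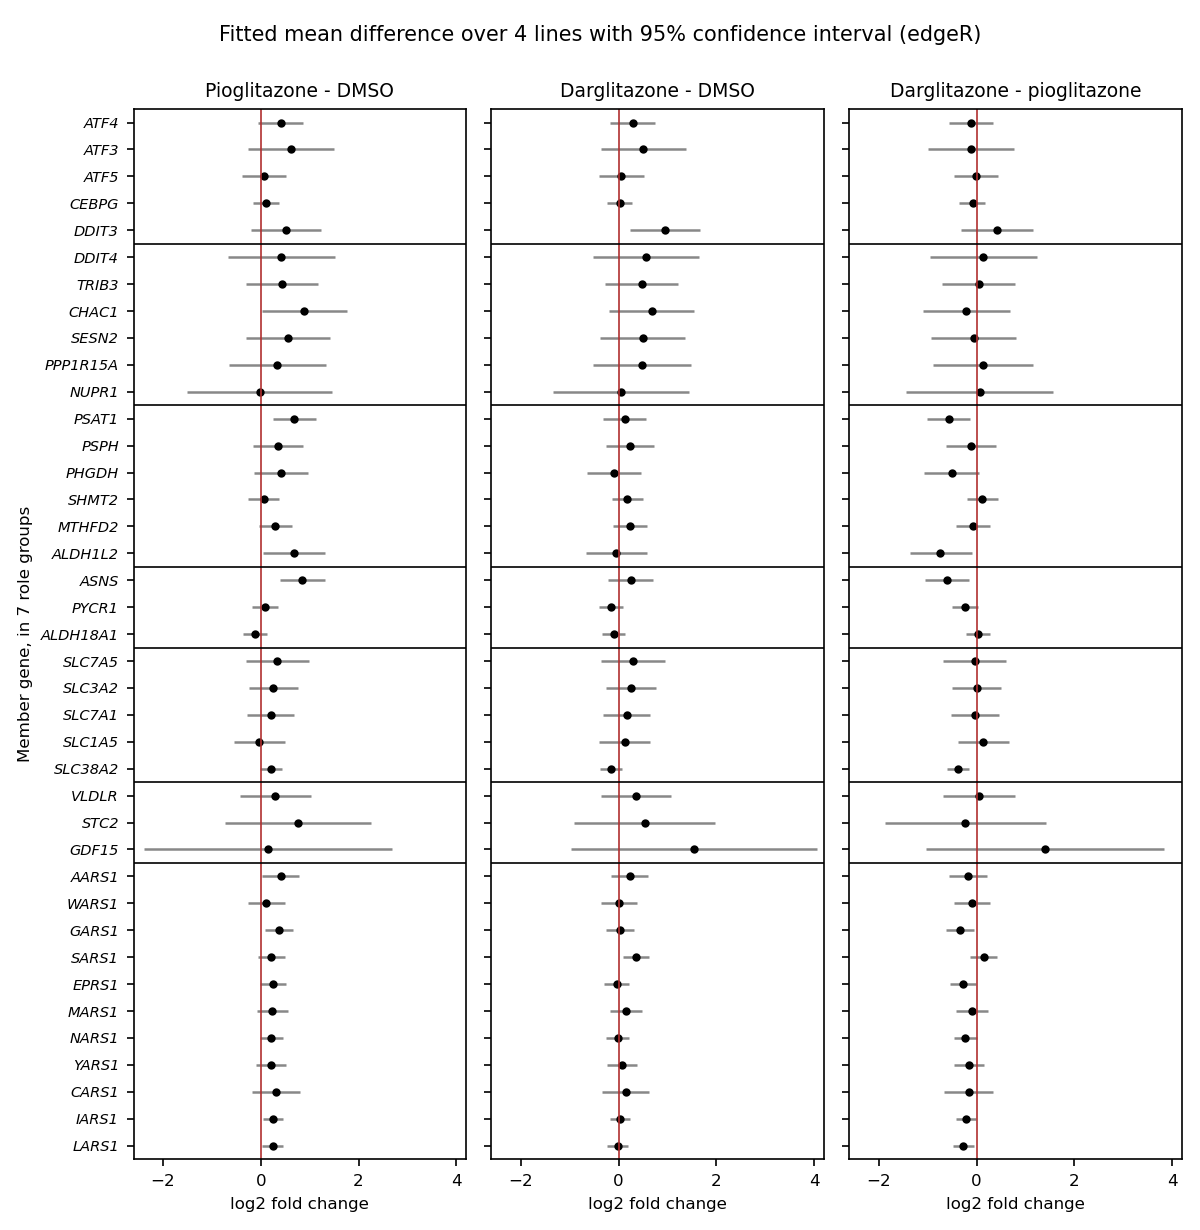
Fitted log2 fold change (points) with its 95% confidence interval (lines) for each of the 39 genes over 12 libraries, for pioglitazone minus DMSO, darglitazone minus DMSO and darglitazone minus pioglitazone. In the left panel 36 points lie right of 0, in the middle panel 31, and in the right panel 28 lie left of it.

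The order of the drugs was not the same in every line. In MV4-11, 15 genes (38.5%, against 10.2% of all genes) were at least 1.5-fold lower with darglitazone than with pioglitazone and 35 of 39 were lower, with a median of -0.51. In OCI-AML3, 14 (35.9%, against 31.7% of all genes, a share close to the background) were at least 1.5-fold higher with darglitazone, among them all 6 stress outputs (NUPR1 against 0 counts), DDIT3, SLC7A5 and SLC3A2, and 4 were lower (10.3%, against 17.5%): ALDH1L2, ASNS, STC2 and EPRS1. The median of the 39 in OCI-AML3 was 0.15, against 0.17 for all genes. The OCI-AML3 comparison rests on the shallowest library. For DDIT3 its 14 counts gave 12.3 CPM with an exact Poisson 95% interval of 6.72 to 20.6, below the 47.9 CPM of the darglitazone library, and for ASNS 186 counts gave 163 CPM with an interval of 141 to 188, above the 96.7 CPM. These intervals cover counting error only, not the spread between cultures or libraries. Without the MV4-11 pioglitazone library the median difference between the drugs was 0.01, with 22 of 39 genes higher with darglitazone, and it was -0.01 without the MV4-11 darglitazone, -0.05 without the MOLM-14 or the KG-1a darglitazone and -0.29 without the OCI-AML3 darglitazone library. The line by drug model pooled both drugs and tested whether their mean response against DMSO differed between lines. It cannot test whether the order of the drugs differed between lines, because it does not separate them by line. This model called 0 of 39 genes in edgeR (0.00648% of all genes). At an edgeR unadjusted p under 0.05 there were 4 (10.3%, against 3.05%): DDIT4, SLC7A1, GDF15 and WARS1. DESeq2 and limma-voom called 0 there too, with 5 and 18 at an unadjusted p under 0.05. That count of 4 was 17 without the OCI-AML3 pioglitazone library and 7 without the MV4-11 darglitazone library.

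More of these genes differed between lines than between treatments. In the edgeR test of any difference between the 4 lines, 34 of 39 genes passed an adjusted p of 0.05 (87.2%, against 72.6% of all genes). The 5 that did not were CHAC1, NUPR1, SARS1, YARS1 and CARS1. The 3 libraries of a line carry different treatments, so these p-values measure the spread between libraries of one line.

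**Figure D4:**
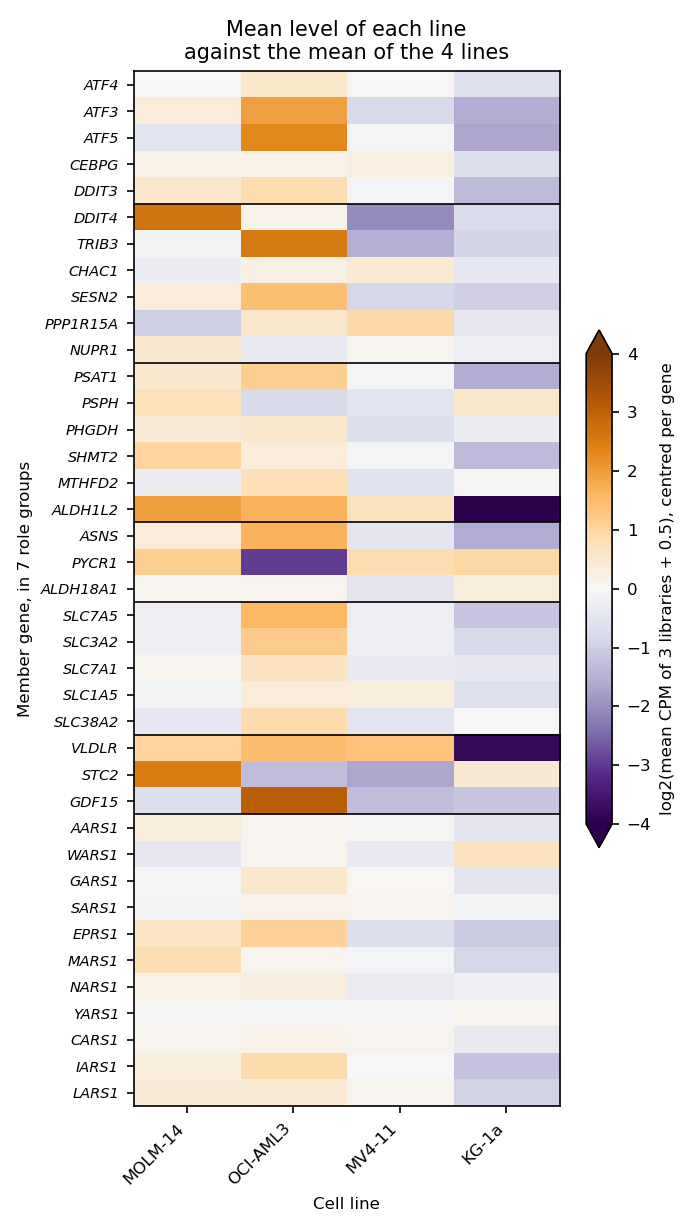
Mean level of each of the 39 genes (rows, grouped by role) in each line (columns), as log2(mean CPM of 3 libraries + 0.5) minus the mean over the 4 lines (colour, limits -4 and 4). The KG-1a column is mostly purple, with 22 genes called lower, and the OCI-AML3 column mostly orange, with 23 called higher and a dark PYCR1.

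Over its DMSO, pioglitazone and darglitazone libraries together, OCI-AML3 stood highest. Against the mean of the other lines 23 genes were higher (59%, against 23% of all genes) and 3 lower (7.69%, against 19.4%), with the edgeR test. The number higher was 18 without the OCI-AML3 darglitazone library and stayed 23 without its DMSO or its pioglitazone library. TRIB3 was at 388 ± 219 CPM in OCI-AML3 against 61.4 ± 5.05 in MOLM-14, 35.5 ± 5.01 in KG-1a and 22.7 ± 7.29 in MV4-11 (SD, n = 3), a fitted 10.1-fold difference (log2 3.33, SE 0.28, edgeR adjusted p = 2.43e-05). ATF5 was 8.36-fold, ASNS 4.43-fold, SLC7A5 4.18-fold and SLC38A2 2.3-fold higher, with edgeR adjusted p = 2.7e-08, 7.84e-07, 0.000232 and 1.85e-07. The 3 lower genes were PYCR1, PSPH and STC2, with PYCR1 at 6.41 ± 0.54 CPM against 96.9 ± 17 to 117 ± 1.42 in the other lines (SD, n = 3, log2 -4.05, SE 0.15, edgeR adjusted p = 2.64e-10). All 3 OCI-AML3 libraries, with DMSO included, lay above the other 9 for 10 genes (25.6%, against 7.95% of all genes). The other genes called higher were not all highest there with DMSO alone. With DMSO, MOLM-14 exceeded OCI-AML3 for ATF4 (589 against 489 CPM), DDIT3, PSAT1, PHGDH, SHMT2, ALDH1L2, SLC7A1, NARS1 and LARS1. MOLM-14 was below OCI-AML3 with DMSO for SESN2, MTHFD2, VLDLR and GARS1.

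KG-1a, the line with CD34 at a mean of 654 CPM against at most 2.72 in the others, stood lowest. Against the mean of the other lines 22 genes were lower (56.4%, against 27.2% of all genes) and 5 higher (12.8%, against 26.9%): PSPH, PYCR1, ALDH18A1, STC2 and WARS1. PSAT1 was at 38 ± 15.1 CPM against 106 ± 41.6 to 248 ± 92.9 in the other lines, and IARS1, the isoleucyl-tRNA synthetase, at 136 ± 18.7 against 312 ± 34.3 to 584 ± 71.1 (SD, n = 3), log2 differences of -2.10 (SE 0.22) and -1.62 (SE 0.10) with edgeR adjusted p = 4.09e-06 and 5.24e-09. ALDH1L2 and VLDLR were at means of 0.285 and 1.05 CPM against 25 and 42.1 or more elsewhere. WARS1, the tryptophanyl-tRNA synthetase, which interferon also induces, went the other way, at 341 ± 68.6 CPM against 161 ± 1.9 to 225 ± 54.2. All 3 KG-1a libraries lay below the other 9 for 16 genes (41%, against 13.2% of all genes). Leaving out both of the KG-1a drug libraries and the OCI-AML3 pioglitazone library, which leaves 1 KG-1a library assumed to vary like the other lines, 17 genes were called, 14 of them lower.

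MOLM-14 and MV4-11 were mixed. In MOLM-14, 16 genes were higher than the mean of the other lines (41%, against 23.5% of all genes) and 4 lower (10.3%, against 17.7%): ATF5, PPP1R15A, SLC38A2 and WARS1. The number lower was 1 without the MOLM-14 darglitazone or the MOLM-14 pioglitazone library. The number higher was 11 without the MOLM-14 DMSO, 13 without the MOLM-14 darglitazone and 15 without the MOLM-14 pioglitazone library. DDIT4 was at 314 ± 27 CPM in MOLM-14 against 11.8 ± 3.35 to 54.7 ± 37.9 elsewhere (SD, n = 3), a fitted 12.5-fold difference (log2 3.64, SE 0.37, edgeR adjusted p = 0.00021), and SHMT2 at 547 ± 20.6 against 107 ± 4.08 to 349 ± 112. In MV4-11, 5 genes were higher (12.8%, against 23.3%) and 15 lower (38.5%, against 17.5%), among them DDIT4, TRIB3 and ASNS, while PPP1R15A, CEBPG, ALDH1L2, PYCR1 and VLDLR were higher. The MV4-11 count of 20 fell to 11 without its DMSO library, 12 without its darglitazone library, 11 without the 3 libraries named above and 13 after all libraries were thinned to the depth of the shallowest.

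Levels of different genes were compared per transcript length, as TPM, an abundance scaled by length and library, in the DMSO libraries. ATF4 was the most abundant of the 39, at 372 ± 80.7 TPM (SD, n = 4), ahead of SHMT2 at 198 ± 114 and MTHFD2 at 192 ± 42.8, which did not differ beyond their spread. NARS1, SLC3A2 and WARS1 followed at 150 ± 19.8, 147 ± 66.1 and 139 ± 64.6 TPM. The least abundant were CHAC1, ATF3, STC2, GDF15 and NUPR1, at 4.18 ± 1.57, 3.36 ± 2.19, 1.18 ± 1.82, 0.73 ± 0.894 and 0.592 ± 0.339 TPM.

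Genes of the same pathways outside the list lay on both sides of 0. None of them passed the edgeR test in any drug comparison. The 12 other cytosolic synthetases and their scaffold proteins had a median log2 fold change of -0.04 with pioglitazone, with 5 above 0 and 7 below, and the 17 mitochondrial synthetases -0.13, with 4 above and 13 below. The 17 kinases and regulators of eIF2 had a median of 0.06, the 13 other ATF4-linked enzymes 0.12, the 13 tested of 14 other amino acid carriers -0.08, and the 8 mTORC1-linked sensors -0.16. With darglitazone the 6 medians lay between -0.08 and 0.06. SLC7A11, which imports cystine for glutathione, was at 97.1, 428 and 310 CPM in OCI-AML3, 8.29, 15.7 and 8.18 in MV4-11, 7.13, 22.9 and 9.63 in KG-1a, and 28, 26.9 and 20.5 in MOLM-14. Its pioglitazone library was the highest in 3 lines, with a fitted 1.11 (SE 0.39, edgeR unadjusted p = 0.0234, adjusted p = 0.806). EIF2AK3, the kinase PERK of the endoplasmic reticulum, was above DMSO in all 4 lines with both drugs, with fitted values of 0.49 (SE 0.19) and 0.40 (SE 0.18) and edgeR adjusted p = 0.8 and 1. SLC38A5, a glutamine carrier, was below DMSO in all 4 lines with both drugs, with -0.43 (SE 0.15) and -0.45 (SE 0.14) and edgeR adjusted p = 0.735 and 1. CBS, which makes cystathionine from homocysteine, differed by -0.76 between darglitazone and pioglitazone (SE 0.22, edgeR unadjusted p = 0.00412, adjusted p = 0.98). EIF2B3, a subunit of the exchange factor eIF2B, was at 0.38 with darglitazone (SE 0.13, edgeR unadjusted p = 0.0124, adjusted p = 1). OMA1, a mitochondrial stress protease, was at 1.49 with pioglitazone (SE 0.60, edgeR unadjusted p = 0.0329, adjusted p = 0.822), with 76.3 CPM in the OCI-AML3 pioglitazone library and 3.21 to 12.6 CPM in the other 11.

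Genes with and without the promoter core printed above were also set side by side. The 13 genes with it had a median fitted log2 fold change of 0.26 with pioglitazone and 0.15 with darglitazone, and the 19 with a window but without it 0.33 and 0.29. Darglitazone was below pioglitazone for 12 of the 13 and for 11 of the 19 (45% of all genes), with medians of -0.16 and -0.04. Of the 13, 6 were tRNA synthetases, a group with 10 of 11 genes lower with darglitazone. The core was thus not separate from the role of the genes, and its part was not tested.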

How the data were processed

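RNA-seq libraries came from total RNA with ribosomal RNA removed by a stranded kit, per the labels' protocols. The authors' table holds estimated counts of each transcript, without normalization. GRCh38, STAR, featureCounts, fastp, FastQC and DESeq2 are named, per the submitters' processing notes. The tool behind the fractional values and all versions were not given in the sources used here. Of 203027 transcripts, 202941 matched GENCODE release 29. Matched values were added up within each of 57865 genes, then rounded. filterByExpr in edgeR 4.0.16 (minimum count 10, minimum total 15, line as group) left 15424 genes. The robust quasi-likelihood F test with cell line and treatment as terms (6 residual degrees of freedom, TMM scaling, Benjamini-Hochberg over all genes, threshold 0.05) was run in R 4.3.3 and checked on simulated data. A line by drug model, whose line by drug terms pooled both drugs against DMSO, had 3 residual degrees of freedom. Single-line log2 ratios used CPM with a prior count of 2. The replicate number stands for the cell line, so the line pairs the libraries by design and is the block of the model. DESeq2 1.42.0, limma 3.58.1, other scaling, filters, coding transcripts only, thinning and left-out libraries were alternatives, 21 per drug comparison. Total estimated counts ran from 1.1 to 64.24 M, and intervals and floors (3 counts) cover counting error only. The members and gene lists were chosen with earlier results of these data known. The rule for the 20 genes given in every library took 8 preset genes and, per role, the smallest p in each drug comparison and the largest span between lines. Other pathway genes could be named where their p was among the 2 smallest of their list in a drug comparison; the 6 given were picked from these after their values were seen.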

Additional observations from a re-analysis of the deposited data

Results flagged for a closer look

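For each of the 20 genes given in every library, and for the median of the 39, the 4 lines' log2 ratios were searched for 1 line far from the other 3, in 63 groups of 4 ratios. The rule marked 7 groups. It is set to mark about 1 in 20 groups of normal values with equal spread. That rate does not apply here: the genes were chosen partly by their values, the libraries differ in depth and the groups share libraries. The count is therefore description only. With darglitazone against DMSO, OCI-AML3 stood apart for ATF4 (1.23, against -0.13 to 0.08 in the other lines), PSAT1 (0.87, against -0.18 to -0.07), MTHFD2 (0.98, against -0.05 to 0.00) and SLC7A5 (1.41, against -0.27 to 0.01). It also stood apart for the median of the 39 genes (0.74, against -0.08 to -0.05). These 5 share the OCI-AML3 DMSO and darglitazone libraries and are not independent of each other. KG-1a stood apart for VLDLR with darglitazone, at 2.67 against DMSO (0.13 to 0.31 in the other lines) and 3.77 against pioglitazone (-0.39 to 0.10), on 3, 1 and 13 counts with DMSO, pioglitazone and darglitazone. That library held 0.629 CPM as 3 counts and reads of MV4-11-specific genes at 4.24% of their level there, and their part in this value was not tested.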

How the results depend on the processing

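The drug comparisons called 0 of 39 genes in every one of the alternative fits run, except that with no low count filter 2 genes (ASNS and PSAT1) passed with pioglitazone and 1 gene in the line by drug model. Without the replicate block, that is with the cell line left out of the model, 0 genes were called with pioglitazone, darglitazone, the mean of both or between the drugs, and the medians with pioglitazone, with darglitazone and between the drugs were 0.29, 0.21 and -0.07. The line by drug model was not run without a DMSO library or without the block. The medians kept their sign with pioglitazone in all 21 alternatives (0.16 to 0.42); with darglitazone they ran from -0.05 to 0.29 and between the drugs from -0.29 to 0.01. The KG-1a count was 17 without the 3 doubted libraries, an alternative chosen after seeing the data. The MV4-11 count was 11 without those, 13 after thinning, and 11 to 21 with 1 library left out. Every sign change was in a value that passed no test. Pioglitazone against DMSO gave ATF5 0.00 with no filter, DDIT4 -0.02 without the block, SLC38A2 -0.04 on coding transcripts, STC2 -0.16 leaving out the pioglitazone libraries of KG-1a and OCI-AML3 and GDF15 -0.19 in DESeq2. Leaving out 1 library each gave -0.19 to 0.23 for ATF5, -0.02 to 0.16 for PYCR1 and -1.05 to 1.51 for GDF15. Darglitazone against DMSO gave ATF5 0.00 and GARS1 -0.03 with no filter, ALDH1L2 0.00 in DESeq2, and EPRS1 0.00 and LARS1 0.07 after thinning. With 1 library left out it ran from -0.23 to 0.20 for ATF5, -0.09 to 0.29 for PSAT1, -0.27 to 0.22 for ALDH1L2, -0.02 to 0.40 for ASNS, -0.05 to 0.49 for SLC7A5, -1.17 to 2.51 for GDF15, -0.06 to 0.12 for GARS1, -0.12 to 0.02 for EPRS1 and -0.07 to 0.01 for LARS1. Darglitazone against pioglitazone gave 0.05, 0.00, -0.07 and 0.08 in limma-voom for ATF5, SLC7A5, VLDLR and STC2, and ATF5 0.00 with no filter. After thinning it gave ATF5 0.13, CHAC1 0.20 and VLDLR -0.22, and without the block MTHFD2 0.02, SLC7A5 0.30 and VLDLR -0.14. Leaving out those same 2 pioglitazone libraries it gave TRIB3 -0.22, VLDLR -0.12, STC2 0.57 and SARS1 -0.05, and with the KG-1a darglitazone library also left out -0.22, -0.19, 0.70 and -0.04. With 1 library left out it ran from -0.40 to 0.01 for ATF4, -0.18 to 0.12 for ATF5, -0.36 to 0.38 for DDIT4, -0.40 to 0.29 for TRIB3, -0.70 to 0.04 for CHAC1, -0.29 to 0.02 for MTHFD2, -0.40 to 0.17 for SLC7A5, -0.13 to 0.30 for VLDLR, -0.76 to 0.33 for STC2 and -1.22 to 2.30 for GDF15. The cause of these changes was not tested. Depth limited NUPR1, STC2, GDF15, PYCR1, CHAC1, PSPH and DDIT3 in the shallowest library, which held 0 to 14 counts of each.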
